A study of Mus musculus with 3 samples.

Results

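Macrophages of mouse dorsal skin were described across 3 single-cell RNA-seq libraries. They were selected on their own measured transcripts. Kept cells had 300 or more detected genes and no more than 10% of their UMIs (unique molecular identifiers, 1 per captured transcript) from mitochondrial genes. A macrophage among them had at least 1 UMI in at least 3 of 6 markers (C1qa, C1qb, C1qc, Csf1r, Adgre1 and Mrc1), at least 1 UMI of Ptprc or Lyz2, and no UMI of Cd207, Pdgfra or Cd3e. This gave 489 macrophages among 33511 kept cells and 36868 cells in all.

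Macrophages are phagocytes of the dermis. Long-lived resident cells, many of them lying along vessels, clear debris and are recognised by scavenger and lectin receptors such as Lyve1, Folr2 and Mrc1, whereas cells that arrive as Ccr2+ blood monocytes mature in the tissue and supply cytokines, complement and antigen presentation. Interferons act on them through the kinases JAK1, JAK2 and TYK2 and the STAT factors, and resident and recruited cells share the skin with dendritic cells and Langerhans cells.

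All 3 groups were wild-type C57BL/6J mice of 8 weeks at entry, labelled female. The control (CON) had vehicle and no irradiation, UV was irradiated on alternate days over 12 weeks with mixed UVA (0.60 mW/cm2) and UVB (3.5 mW/cm2) and had the vehicle (10% DMSO in Aquaphor), and Rux received the same irradiation followed each time by a 1.5% ointment of ruxolitinib, an inhibitor of JAK1 and JAK2. All libraries came from the whole depth of the dorsal skin. In the irradiated groups, sampling followed the end of irradiation by 24 h. The number of mice behind each library is not given in the sources used here.

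With 1 library per condition there was no replicate, so no difference between conditions was tested. Each condition cannot be told apart from its library, and intervals (95%) cover counting error only. The libraries held 13170 (CON), 12411 (UV) and 11287 (Rux) cells and 165337289, 133972374 and 131570327 UMIs. Macrophages numbered 157, 134 and 198, and their summed UMIs were 1166528, 1099987 and 1864305. Their median depth was 5142 UMIs in CON, 7068 in UV and 8396 in Rux, so the Rux macrophages were the deepest.

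The transcripts went against the label of female mice. The Y-linked gene Ddx3y stood at 110.2, 116 and 122 CPM (UMI counts scaled to a common library total) over all kept cells in CON, UV and Rux, and Xist at 0.116, 0.106 and 0.101. Ddx3y was also present in the macrophages, at 123, 96.4 and 87.4 CPM. CON and UV shared 50 cell barcodes, UV and Rux 40, and CON and Rux 28. No macrophage barcode occurred among the macrophages of another library, although 1 Rux macrophage had a barcode that was also in the UV library.

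The selected cells carried myeloid transcripts that the rule did not use. Levels are CPM over the macrophages of a library, in the order CON, UV and Rux, and are not scaled to gene length, so they are not compared between genes. Cd68, a lysosomal glycoprotein, stood at 204, 217 and 300.4. Spi1, the myeloid lineage factor PU.1, stood at 255, 298 and 346, and Tyrobp, the signalling adaptor of many myeloid receptors, at 496, 848 and 1308. Cells with 2 of the 6 markers, which the rule left out, held Cd68 at 175, 175 and 189. They held Tyrobp at 1345, 1287 and 1755, above the macrophages, so Tyrobp did not set the macrophages apart from them. Of the rule's own genes, C1qb was at 1084, 925 and 1021 and Csf1r, the receptor for macrophage colony-stimulating factor, at 366, 370.0 and 367. Mrc1, the mannose receptor, was at 1256, 736 and 488, and was the marker that differed most between libraries.

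Cells lay on both sides of the rule's threshold. Cells just inside it, with 3 of the 6 markers, numbered 27, 37 and 54 and held C1qb at 76.8, 70.7 and 91.2 CPM. Cells just outside it, with 2 markers, numbered 63, 56 and 134 and held C1qb at 22.3, 5.45 and 13.3. C1qb is itself counted, so its fall across the threshold was set in part by the rule. Csf1r, also counted, was higher outside, at 229, 320 and 313 against 157, 279 and 288 just inside. Lyz2 (lysozyme), which the rule also uses, was at 8568, 6380.2 and 8142 outside against 4510, 6435 and 7405 just inside. The exclusion of Cd207, Pdgfra and Cd3e removed 17, 18 and 31 cells, of which those with Pdgfra, a fibroblast receptor, were 11, 17 and 24.

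Macrophages were a larger share of the Rux library than of the others. They made up 1.30% of kept cells in CON (exact Clopper-Pearson interval 1.11 to 1.52), 1.18% in UV (0.992 to 1.40) and 1.95% in Rux (1.69 to 2.24). The CON and UV intervals overlapped, and the Rux interval lay above both. Kept cells were also thinned to 2000 UMIs, which left out 1424, 1216 and 862 shallower cells. Of the remaining 10615, 10115 and 9279 cells, macrophages were 1.05% (0.861 to 1.26), 0.821% (0.654 to 1.02) and 1.35% (1.12 to 1.603). The CON and Rux intervals thus overlapped at equal depth. Among cells with a UMI of Ptprc, the pan-leukocyte phosphatase CD45, macrophages were 16.2%, 15.0% and 13.01%, so Rux was not the highest within leukocytes. Neutrophils, picked by at least 3 of 5 markers, numbered 54, 22 and 232.

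The mixture of detection patterns among the macrophages differed between libraries before depth was made equal (the plot of shares). Cells with a UMI of Lyve1 or Folr2 and none of Ccr2, the resident-type pattern, were 78 of 157 (49.7%, interval 41.6 to 57.8) in CON, 37 of 134 (27.6%, 20.2 to 36.0) in UV and 35 of 198 (17.7%, 12.6 to 23.7) in Rux. Cells with Ccr2 and neither of the other genes were 31 (19.7%, 13.8 to 26.8), 49 (36.6%, 28.4 to 45.3) and 91 (46.0%, 38.9 to 53.2). In CON the first pattern outnumbered the second, and in UV and Rux the second outnumbered the first, at depths that were not equal. Cells with both patterns were 3, 8 and 9, and cells with neither 45, 40 and 63. A class rests on 1 UMI or more of 3 genes and is a pattern of detection, not a cell type. Keratinocyte markers summed to 3449, 2826 and 4702 CPM in the Lyve1 or Folr2 class and to 6128, 868 and 732 in the Ccr2 class. Fibroblast markers summed to 3377, 1023 and 926 CPM in the first class and to 820.1, 1267 and 775 in the second. Melanocyte and Schwann markers, at 3086, 44.5 and 35.1 against 67.3, 72.2 and 28.4, were highest in the CON cells of the Lyve1 or Folr2 class. Muscle and adipocyte markers, at 75.6, 6.84 and 2844 against 18.1, 10.9 and 6.86, were highest in the Rux cells of that class. The part of all these markers in the class levels was not tested.

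**Figure D1:**
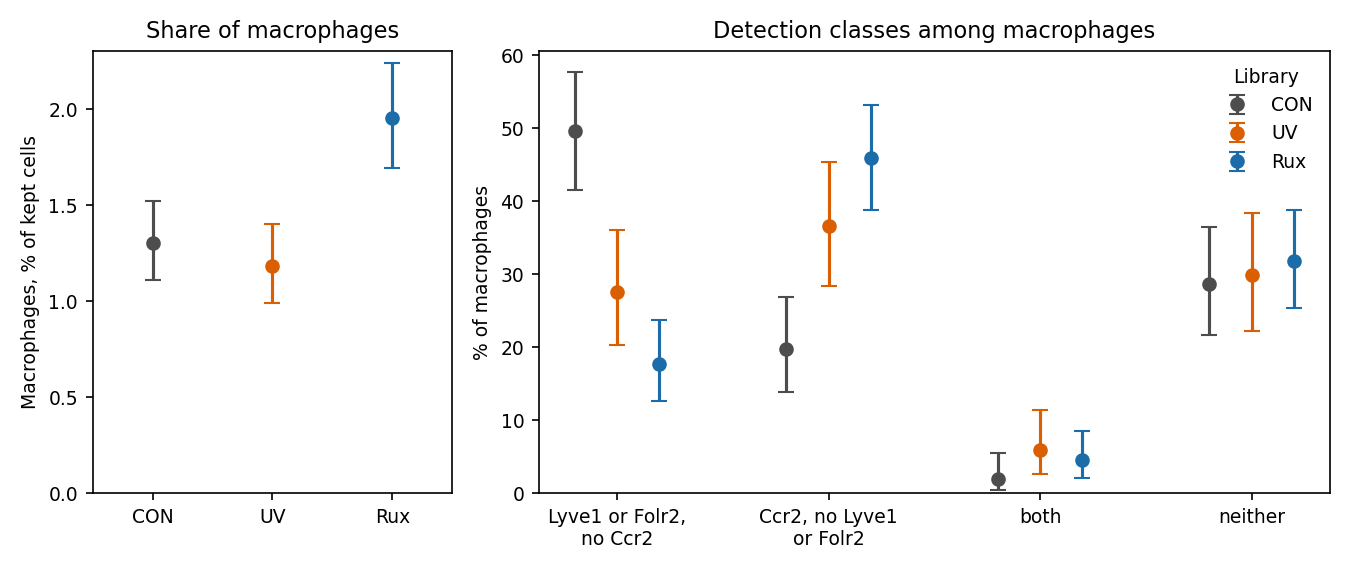
Left, macrophages as a percent of kept cells in each library; right, the percent of macrophages with UMIs of Lyve1 or Folr2 only, of Ccr2 only, of both or of neither. Points are shares and bars exact 95% intervals for counting error; the Lyve1 or Folr2 class runs from 49.7% in CON to 17.7% in Rux and the Ccr2 class from 19.7% to 46.0%.

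The shares depended on depth. At 2000 UMIs per cell, where 15, 10 and 7 shallower macrophages were left out, Lyve1 was detected in 21.8%, 13.7% and 8.38% of macrophages and Folr2, a folate receptor, in 26.8%, 19.4% and 9.42%. Both were highest in CON and lowest in Rux, as without thinning (35.7%, 20.1% and 12.1% for Lyve1). Ccr2 was detected in 13.4%, 19.4% and 19.9% after thinning against 21.7%, 42.5% and 50.5% before it. At equal depth the counting intervals of CON, UV and Rux overlapped for Ccr2, so its order between libraries is not read. In UV, Folr2 and Ccr2 were then both at 19.4%, so the larger number of Ccr2 cells there was not seen at equal depth. Fibroblasts thinned in the same way, whose median depth was 7297, 8465 and 11040 UMIs, showed 0.542%, 0.413% and 0.398% for Lyve1. For Ccr2 they showed 0.0677%, 0.0972% and 0%. The last is 0 of 4526 cells, with an approximate limit of 0.0663% on detection that is not an exact interval. The macrophage shares thus lay above those of cells that should lack these genes.

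Differences between libraries were then counted over all genes. Genes entered where CON and UV averaged 50 CPM or more and together held 50 UMIs or more. Of 3404 such genes, 96 (2.82%) were at least 2-fold higher in UV than in CON and 90 (2.64%) at least 2-fold lower. Of 3231 in UV and Rux, 58 (1.80%) were at least 2-fold higher in Rux and 139 (4.30%) at least 2-fold lower. Median-of-ratios scaling, which moved the Rux over UV ratios by 0.14 on the log2 scale, gave 92 higher and 94 lower in that comparison. Macrophages thinned to 2000 UMIs gave 63 higher and 71 lower of 2170 genes. The excess of lower genes in Rux was thus smaller under each of these settings. With cells of 2 markers added, UV over CON gave 45 higher and 58 lower. Both comparisons use the UV library, and each gene below is therefore given in all 3 libraries. The count "past 2-fold" describes 2 libraries and is no test. For lists, which take genes of at least 10 CPM, all 8366 genes had a median log2 ratio of -0.07 in UV over CON with 43.8% above 0, 4.60% at least 2-fold higher and 6.93% lower. All 7835 had a median of -0.11 in Rux over UV with 41.5% above 0, 2.25% at least 2-fold higher and 9.41% lower.

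Genes of resident and perivascular macrophages were lower in UV than in CON and lower again in Rux. Of 21 measured in UV and CON, 17 were lower in UV and 3 of them at least 2-fold, with a median log2 ratio of -0.41. Of 20 measured in Rux and UV, 18 were lower in Rux and 11 of them at least 2-fold, with a median of -1.08 that ran from -1.21 to -0.94 over the alternatives tried. Their summed level was 8523 CPM in CON, 6817 in UV and 4039 in Rux.

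Several secreted products belonged to this group. Ccl8, a monocyte and lymphocyte chemokine, stood at 1269.6 in CON, 699 in UV and 232 in Rux (log2 ratio of Rux over UV -1.59, counting interval -1.76 to -1.42). The order was the same for Gas6, the ligand of the phagocytic receptors Axl and Mertk, at 255, 202 and 79.4, and for Igf1, a growth factor, at 111, 77.3 and 33.8. Without the exclusion genes, the Rux over UV ratios of Gas6 (-1.34) and Igf1 (-1.19) were -0.95 and -0.67. Ccl24, an eosinophil chemokine, was instead highest in UV, at 241, 465 and 47.2, but 1 UV cell held 44.6% of its UMIs there. Selenop, the selenium carrier, was at 1424, 1542 and 872 and so differed mainly in Rux.

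Lectins and scavenger receptors were the other large part of the list. Cd209d, a DC-SIGN family lectin, was at 166, 53.6 and 9.66 and was found in 58, 18 and 8 macrophages. Mgl2 and Clec10a, which bind galactose-type sugars, were at 404, 191 and 91.2 and at 339, 251 and 117, and their Rux over UV ratios of -1.07 and -1.09 were within 2-fold under median-of-ratios scaling. Folr2 stood at 162, 155 and 47.7, so CON and UV did not differ beyond counting error (log2 ratio -0.07, interval -0.38 to 0.24) and Rux was lower (-1.69, -2.08 to -1.32). Stab1, a scavenger receptor, at 105, 63.6 and 80.5, and Ninj1 at 328, 365 and 399.6 were the 2 that were not lower in Rux than in UV.

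Most monocyte-derived genes were higher in UV than in CON and higher again in Rux. Of 14 measured in UV and CON, 12 were higher in UV and 8 at least 2-fold, with a median of 1.15. With cells of 2 markers added it was 0.02, and over the other alternatives it was not below 0.93. Of 15 measured in Rux and UV, 13 were higher in Rux and 2 at least 2-fold, with a median of 0.40 (0.17 to 0.56 over the alternatives). Summed, the list stood at 3078, 4830.1 and 6641 CPM. The order was the same in dendritic cells (3039, 4814 and 6467) and neutrophils (3020, 3112 and 4776). It was also the same in fibroblasts (3732, 4558 and 4831) and keratinocytes (1153, 1683 and 2054), so it was not particular to macrophages.

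Chil3, a chitinase-like lectin of monocytes and alternatively activated macrophages, stood at 20.6 in CON, 301 in UV and 587 in Rux, in 2, 32 and 72 cells. At 2000 UMIs per cell it was detected in 0.704%, 13.7% and 29.3% of macrophages and in at most 0.309% of fibroblasts. Hp, haptoglobin, was at 13.7, 53.6 and 195 and Fn1, fibronectin, at 222, 483 and 670.0. CON was lowest and Rux highest for all of these. Ly6c2, the antigen of classical monocytes, was at 16.3, 51.8 and 48.8 (log2 ratio of UV over CON 1.64, but -0.49 with cells of 2 markers added), and Plac8 at 33.4, 238 and 314. Vcan, the matrix proteoglycan versican, was at 57.4, 152 and 397. Plac8 and Vcan were also detected in 32.3% to 49.1% and 31.0% to 39.0% of thinned fibroblasts. What free RNA contributed to them, to Hp and Fn1 or to other genes was not tested. Lyz1, a second lysozyme gene whose sequence is close to that of Lyz2 so that reads may be shared, went the other way at 381, 321 and 81.5, and Ear2, a ribonuclease, at 90.0, 29.1 and 37.0. With cells of 2 markers added, the UV over CON ratio was 1.10 for Chil3 (3.84 by the rule), 0.46 for Plac8 (2.82), 0.047 for Hp (1.94), 0.036 for Vcan (1.40) and 0.81 for Fn1 (1.12), so of these 5 only Chil3 stayed past 2-fold.

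**Figure D2:**
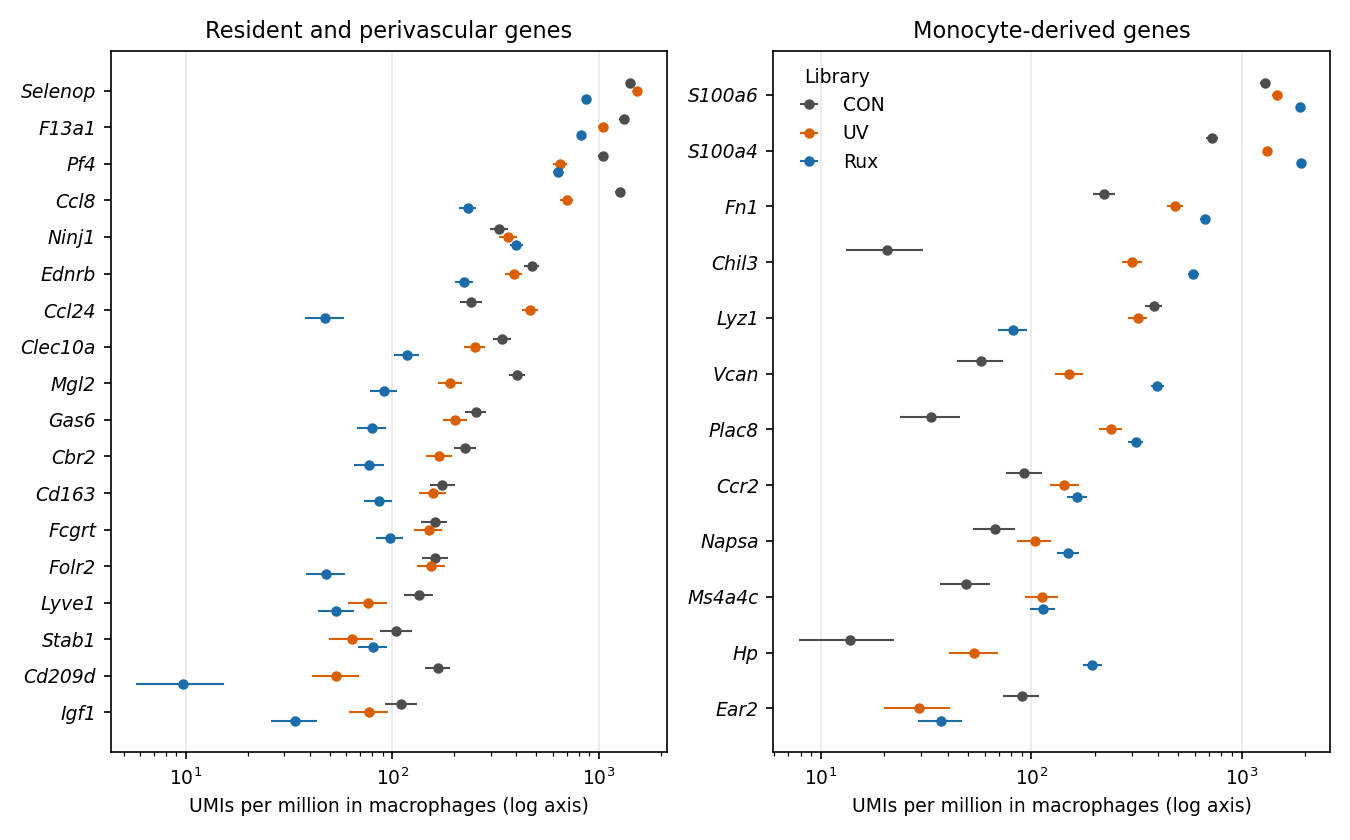
Levels in macrophages of resident and perivascular genes (left) and monocyte-derived genes (right) that averaged 50 CPM or more, on a log axis. Points are the libraries CON, UV and Rux and bars exact Poisson 95% intervals; most resident genes lie highest in CON and lowest in Rux, and Chil3, Hp, Vcan and Fn1 the reverse.

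Interferon-stimulated genes were lower in Rux than in UV. All 25 that were measured lay below 0 in Rux over UV, 13 of them at least 2-fold, with a median log2 ratio of -1.04 (-1.21 to -0.90 over the alternatives) against -0.11 for all genes. In UV over CON the list was mixed: 10 were higher and 19 lower, 1 and 5 of them at least 2-fold, with a median of -0.32. Summed, it stood at 7853, 5996 and 3660.4 CPM, so CON was highest and Rux lowest.

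Rsad2, which encodes the antiviral enzyme viperin, had the most UMIs of the list. It stood at 2045 in CON, 846 in UV and 234 in Rux, with no overlap of intervals, and the ratio of Rux over UV was -1.85 (-2.02 to -1.69). At 2000 UMIs per cell it was detected in 49.3%, 39.5% and 19.9% of macrophages, against 0.914%, 1.53% and 0.928% of fibroblasts. Isg15, a ubiquitin-like modifier, was at 516, 406 and 198 and Ifit1, which binds foreign RNA, at 687, 298 and 153. The UV over CON ratios were -1.27 for Rsad2 and -1.20 for Ifit1, and -0.87 and -0.79 without the exclusion genes. The guanylate-binding proteins of cell-autonomous defence, Gbp2, Gbp3, Gbp5 and Gbp7, were at 76.3, 104 and 34.3, at 28.3, 27.3 and 14.5, at 89.2, 97.3 and 42.9 and at 45.4, 45.5 and 17.7, lowest in Rux. Over the alternatives the Rux over UV ratio was as small as -0.73 for Gbp2, -0.88 for Gbp5 and -0.88 for Isg15. Cxcl9, a chemokine for activated T cells, was at 28.3, 27.3 and 0.536, but a single cell held over 50% of its UMIs in CON and in UV. Cxcl10, its relative, was at 539, 273 and 272, and Ifitm3, a restriction factor at membranes, at 682, 1021 and 976, so for these the Rux and UV libraries were alike.

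The promoters of 3 of the genes that were at least 2-fold lower in Rux are shown, since they carry the letters of the interferon-stimulated response element that interferon-activated factors bind. The search was for GAAANNGAAA on both strands in the 300 bases around each start (250 before and 50 after) of RefSeq genes on GRCm38.p6. Sequences are written in the direction of the gene and capitals mark the matches.
Rsad2, chr12:26456523-26456612, minus strand: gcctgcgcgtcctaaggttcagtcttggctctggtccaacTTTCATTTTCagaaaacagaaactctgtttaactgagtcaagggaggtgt
Isg15, chr4:156200835-156200936, minus strand: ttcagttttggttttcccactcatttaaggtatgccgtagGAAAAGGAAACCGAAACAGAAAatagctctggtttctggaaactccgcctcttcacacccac
Gbp5, chr3:142496729-142496818, plus strand: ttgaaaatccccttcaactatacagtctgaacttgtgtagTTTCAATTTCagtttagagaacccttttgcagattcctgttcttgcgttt
Rsad2 and Gbp5 held 1 match each, at 120 to 111 and 165 to 156 bases before the start, and Isg15 held 3 that overlap, at 78 to 57. Of the 29 listed genes 23 had a promoter in the table and 16 of these a match. Of the 11 among them that were at least 2-fold lower in Rux, 6 had one. The share with a match was thus no higher among the lower genes than in the list, and a link was not tested. Of all 32851 windows 3.44% held a match, and of 2592 genes expressed in the macrophages 4.40%. A match is a description of letters and not of binding.

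Components of the JAK-STAT pathway itself were lower in Rux for several members. Of 10 measured kinases and STAT factors, 9 lay below 0 in Rux over UV and 2 at least 2-fold, with a median of -0.39. Stat2, which carries the type I interferon signal, was at 65.2, 52.7 and 24.7, whereas Jak2 was at 250.3, 300.004 and 289.7. Nlrc5, the transactivator of MHC class I genes, was at 116, 90.0 and 25.7. Feedback genes were mixed. Socs3, an inhibitor induced by STAT3, was at 225, 232 and 308 and Cish at 27.4, 27.3 and 18.2. Among receptors, Osmr, the oncostatin M receptor, stood out at 32.6, 63.6 and 6.44, in 17, 19 and 10 cells, while Ifnar2 and Ifngr1, subunits of the interferon receptors, were highest in Rux at 133, 232 and 343 and at 64.3, 126 and 183.

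Inflammatory genes were higher in Rux than in UV. Of 20 measured, 16 lay above 0 and 5 at least 2-fold, with a median of 0.67 (0.53 to 0.80 over the alternatives). In UV over CON, 12 lay above 0 and 3 at least 2-fold, with a median of 0.19. The summed level was 7210.3, 8957 and 15977 CPM, so Rux held the most.

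Il1b, the cytokine interleukin-1 beta, was the main contributor. It stood at 1447 in CON, 1777 in UV and 5185 in Rux (Rux over UV 1.54, interval 1.47 to 1.62), and no Rux cell held more than 3.33% of its UMIs. At 2000 UMIs per cell it was detected in 26.1%, 46.0% and 70.2% of macrophages, against 0.271%, 0.292% and 1.57% of fibroblasts, whose share was likewise highest in Rux. Clec4e, the receptor Mincle, was at 423, 952 and 1459 and Ptgs2, the prostaglandin synthase COX-2, at 293, 742 and 1406, both lowest in CON and highest in Rux. With cells of 2 markers added, their UV over CON ratios of 1.17 and 1.34 were 0.60 and 0.63. The anti-inflammatory cytokine Il10 was also highest in Rux, at 417, 489 and 1008 (Rux over UV 1.04, and 0.63 under the strict cell filter), as was Nfkbia, an inhibitor of NF-kB that NF-kB induces, at 1393, 1711 and 2708. Il6 ran the other way at 327, 259 and 221. Tnf was at 356, 492 and 632, and Nos2 had at most 2.15 CPM in any library.

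Chemokines differed in direction. Cxcl3 and Cxcl2, which draw neutrophils through CXCR2, were at 261, 475 and 1214 and at 9032, 9364 and 11806, highest in Rux. Ccl2, Ccl7 and Ccl12, which draw Ccr2+ monocytes, were highest in CON and lowest in Rux, at 3199, 2099 and 1823, at 2635, 1523 and 1324 and at 378, 99.1 and 13.9. Ccl4 was at 4928, 3087 and 2223 and Ccl3 at 863, 385 and 359.9. Over the list, 10 of 17 were higher in UV than CON and 8 of 17 higher in Rux than UV, with medians of 0.05 and -0.10. Ccl17, at 90.0, 17.3 and 0.536, rested on 5, 3 and 1 cells.

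**Figure D3:**
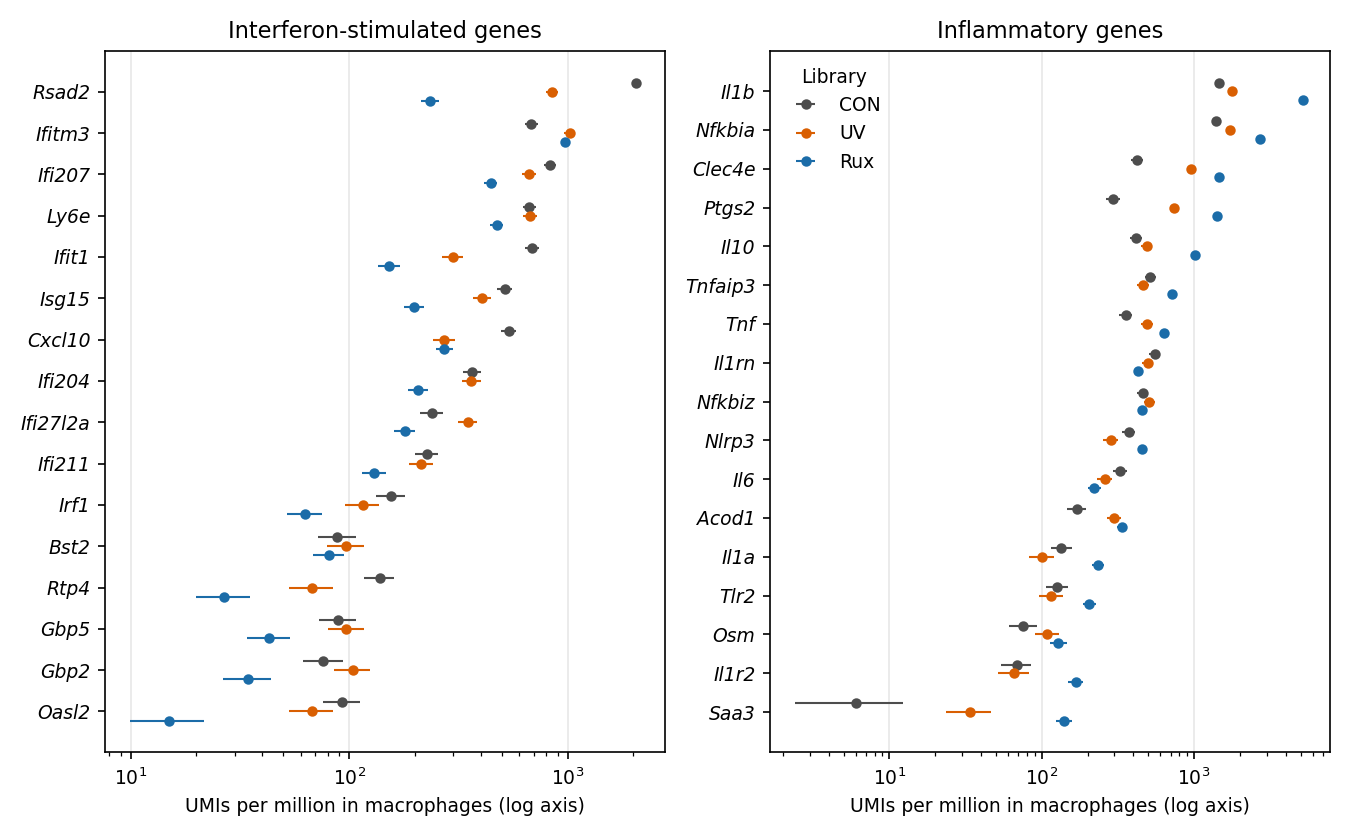
Levels in macrophages of interferon-stimulated genes (left) and inflammatory genes (right) that averaged 50 CPM or more and had a UMI in every library, on a log axis. Points are libraries and bars exact Poisson 95% intervals; Rsad2, Isg15, Oasl2, Gbp2 and Gbp5 lie lowest in Rux, and Il1b, Il10, Ptgs2 and Saa3 highest in Rux.

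The 2 detection classes were then compared within each library, to set cells of 1 pattern side by side. Their summed depth was 528806, 292322 and 285173 UMIs for the Lyve1 or Folr2 class and 386557, 457153 and 1019762 for the Ccr2 class. Of 3612 genes with at least 30 UMIs in both classes together in every library, 149 were at least 2-fold higher in the Lyve1 or Folr2 class in all 3 libraries and 110 at least 2-fold higher in the Ccr2 class. The 3 genes that define the classes, Lyve1, Folr2 and Ccr2, are among these, and their differences were fixed by the choice of cells. Cells of 1 library are not replicates, so the counts are descriptions.

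Ccl8 marked the first class, at 2396, 2391 and 1196 CPM in it and at 7.76, 4.37 and 14.7 in the Ccr2 class. Pf4, a platelet-type chemokine that resident macrophages also make, was at 1513, 1659 and 1704 against 129, 50.3 and 95.1. Within that class neither gene was lower in UV than in CON by more than counting error, whereas over all macrophages Ccl8 was at 1269.6 and 699 and Pf4 at 1049 and 650.0 in CON and UV. The resident list as a whole had a median of 0.00 in UV over CON within the class, and of -0.77 in Rux over UV, where 6 of 21 were at least 2-fold lower. Of all 8378 genes measured there, 15.7% were at least 2-fold lower and 10.8% at least 2-fold higher. Folr2 is in the resident list and also helps to choose the class, so its level within the class was set in part by that choice.

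Il1b marked the Ccr2 class, at 2967, 2925 and 7239.9 against 92.7, 116 and 905 in the Lyve1 or Folr2 class. Rux held the highest level in both. Thbs1, thrombospondin-1, was at 546, 1883 and 3698 against 24.6, 209 and 340.1, and Chil3 at 62.1, 602 and 979 against 0, 10.3 and 7.01. Class II genes were higher in the Ccr2 class, Cd74, the invariant chain, being at 8542, 9222 and 6100.4 against 4603, 3359 and 3678.

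The interferon-stimulated list had another shape in each class. In the Lyve1 or Folr2 class its sum was 10486, 6212 and 4615 CPM, and the median log2 ratio was -0.73 in UV over CON and -0.31 in Rux over UV, with 12 of 28 and 1 of 25 at least 2-fold lower and 1 in each comparison at least 2-fold higher. Over all genes in that class, 10.2% were at least 2-fold lower and 14.5% higher in UV over CON, and 15.7% and 10.8% in Rux over UV. In the Ccr2 class the sum was 4752, 5716 and 3716, and the medians were -0.03 and -1.29, with 3 of 27 and 16 of 25 at least 2-fold lower and 7 and 0 at least 2-fold higher. All genes in that class were at least 2-fold lower in 19.3% and higher in 7.86% in UV over CON, and in 10.8% and 4.13% in Rux over UV. All genes had medians of 0.02 and -0.04 in the first class and of -0.24 and -0.12 in the second. The difference between classes was not tested. Rsad2 was at 3368, 1355 and 824 in the first and at 603, 348 and 75.5 in the second. Isg15 was at 486, 195 and 274 in the first, so Rux was not below UV, and at 554, 521 and 200.05 in the second.

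Inflammatory genes were higher in Rux than UV in both classes, with medians of 0.86 (16 of 19 above 0) and 0.37 (15 of 20 above 0). Clec4e stood at 202, 212 and 386 in the Lyve1 or Folr2 class and at 647, 1518 and 1931 in the Ccr2 class, so the difference between CON and UV was seen in the second.

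**Figure D4:**
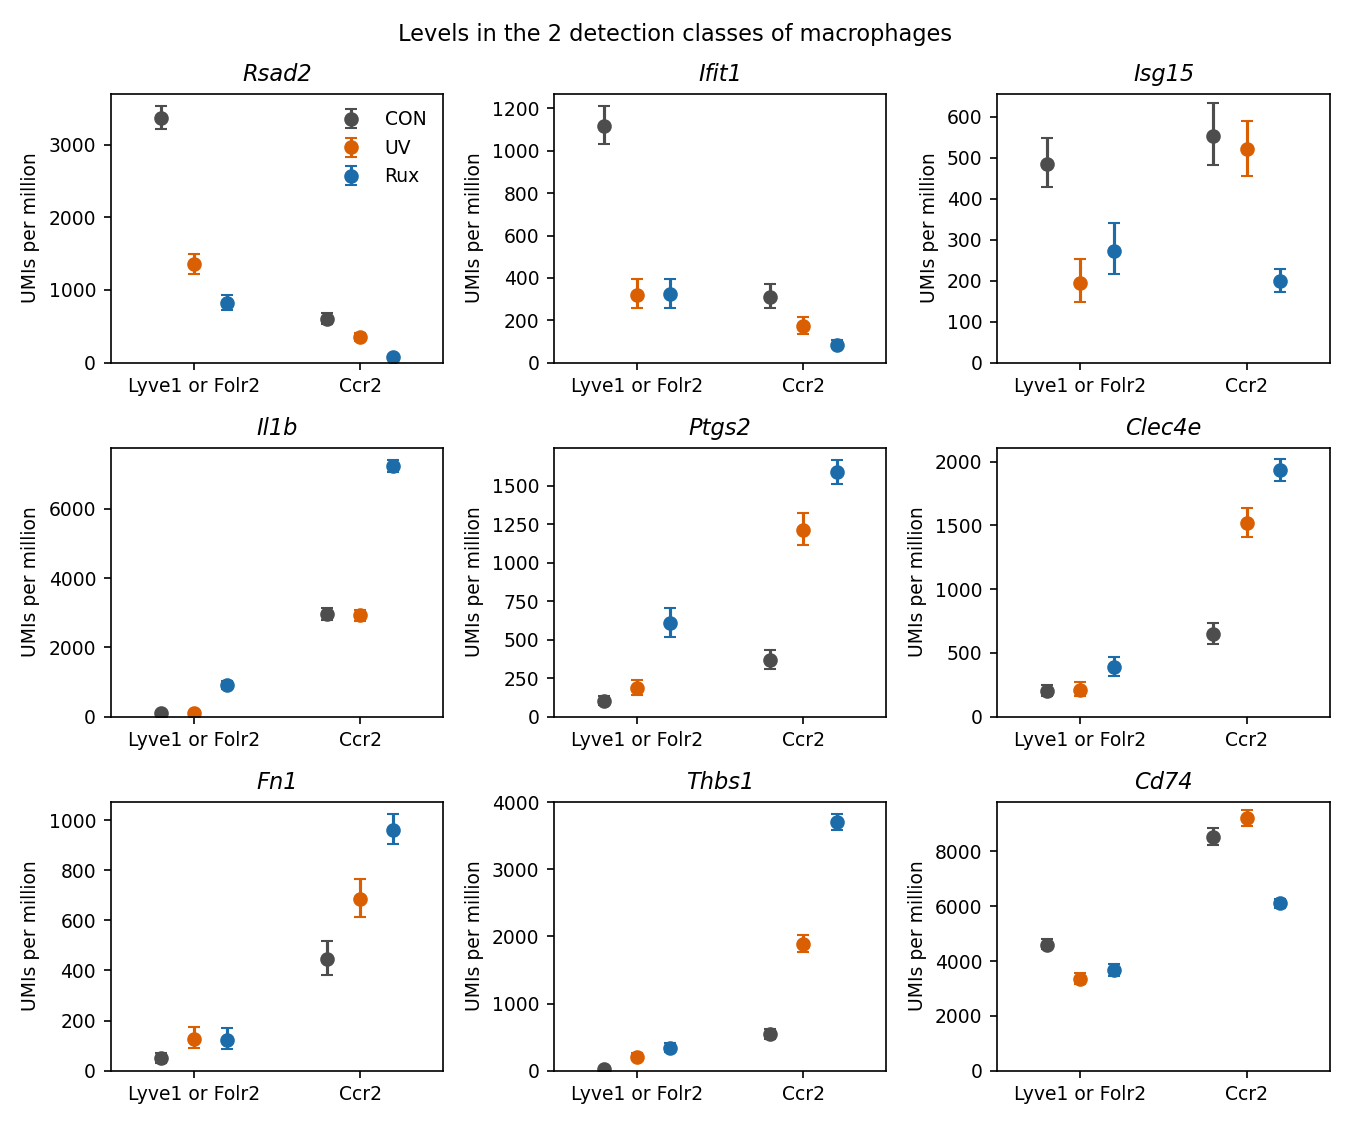
Levels of 9 genes in macrophages with Lyve1 or Folr2 and no Ccr2 and in those with Ccr2 and neither of the other genes, in CPM from 0. Points are libraries and bars exact Poisson 95% intervals. Il1b, Ptgs2 and Clec4e are highest in Rux in both classes. Isg15 is lower in Rux than in UV in the Ccr2 class, and in the other class its UV and Rux intervals overlap.

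Antigen presentation genes had smaller ratios than the interferon-stimulated list. Class II genes summed to 18342, 17708 and 15109 CPM, with medians of -0.08 and -0.22, and none of 7 was at least 2-fold lower in Rux than in UV. H2-Ab1, a class II beta chain, was at 3743, 3345 and 3027 and was detected in 88.0%, 80.6% and 66.5% of macrophages at 2000 UMIs. Of the class I genes all 15 lay below 0 in Rux over UV, but Nlrc5 was the one at least 2-fold lower, and the median was -0.45. B2m, the light chain, stood at 1648, 1882 and 1643, so UV was highest and CON and Rux alike. Cd86, a costimulatory ligand for T cells, was at 886, 685 and 615.

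Genes of alternative activation did not move together. Retnla, the secreted resistin-family protein RELM-alpha that interleukin-4 induces, stood at 2028, 1301 and 697 and was detected in 30.3%, 20.2% and 7.85% of macrophages at 2000 UMIs, and 1 Rux cell held 54.4% of its UMIs there. Tgm2, a transglutaminase, was at 52.3, 132 and 205, with a UV over CON ratio of 1.33 that was 0.45 with cells of 2 markers added. Of 10 measured in UV over CON, 4 lay above 0, and of 9 in Rux over UV, 3.

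Lipid-handling and matrix genes included large ratios carried by few cells. Spp1, osteopontin, stood at 15.4, 155 and 696 in 7, 18 and 51 cells, and 1 UV cell held 45.9% of its UMIs there. Mmp12, macrophage elastase, was at 21.4, 197 and 261 in 3, 10 and 18 cells, and Mmp13, collagenase 3, at 0.857, 375 and 38.6 in 1, 8 and 11 cells, with 51.6% of the UV UMIs in 1 cell. Fabp4, a fatty-acid chaperone, was at 144, 628 and 92.3, but 1 UV cell held 75.1%, and without the members rich in other lineages the UV over CON ratio of 2.12 became -0.14. Trem2, a lipid receptor, was at 46.3, 81.8 and 150.2. Apoe was at 4936, 5423 and 5618, with CON lowest and no ratio near 2-fold. Mmp14, a membrane collagenase, was at 83.2, 134 and 319.7, and the cathepsins Ctsl and Ctsk at 375, 471 and 1189.7 and at 60.9, 64.5 and 167. The lysosomal list had 18 of 24 genes above 0 in Rux over UV, with a median of 0.16.

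Growth factors went in both directions. Hbegf, an EGF receptor ligand, stood at 405, 297 and 93.9, Pdgfc at 118, 70.0 and 18.2 and Pdgfa at 66.0, 38.2 and 7.51, all lowest in Rux. Inhba, the activin A subunit, was at 20.6, 122 and 225 and Thbs1, which releases active TGF-beta, at 228, 1144 and 2511, both lowest in CON. With cells of 2 markers added, the UV over CON ratio of Thbs1 was 0.46 in place of 2.32. It was detected in 11.3%, 42.7% and 59.2% of thinned macrophages, and in 31.8%, 33.3% and 35.5% of thinned fibroblasts, and what free RNA contributed was not tested. Csf1, the growth factor of macrophages, was highest in UV at 27.4, 94.5 and 47.7, but its UV over CON ratio of 1.77 was 0.42 without members rich in other lineages.

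Iron and stress genes completed the lists. Fth1, the ferritin heavy chain, stood at 6951, 12202 and 16819 and Hmox1, haem oxygenase 1, at 1204, 1116 and 634, with Bach1, a repressor of Hmox1, at 378, 329 and 157. Slc7a11, the cystine importer, was at 233, 790.0 and 1100.1, and Gsr, glutathione reductase, at 66.9, 144 and 228 (UV over CON 1.10, and 0.67 with cells of 2 markers added). The metallothioneins Mt1 and Mt2 were at 3567, 1949 and 1065 and at 957, 692 and 269.8, so CON was highest and Rux lowest. Immediate-early genes, which dissociation of tissue induces, had medians of -0.18 and -0.30, with Fos at 797, 694 and 700.0. Heat-shock genes lay below 0 in 11 of 12 in Rux over UV, with a median of -0.60.

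Of 13 complement genes and receptors, 1 was at least 2-fold higher in UV than CON and 4 at least 2-fold lower in Rux than UV. C3, the central component, was at 37.7, 148 and 162, so CON was lowest. Cell-cycle genes were lower in UV than in CON in 18 of 18, 7 of them at least 2-fold, with a median of -0.77. In Rux over UV, 8 of 9 lay below 0 and 4 at least 2-fold, with a median of -0.52. Stmn1 was at 271, 95.5 and 47.2 (Rux over UV -1.01, and -0.17 with equal weight per cell). Its UV over CON ratio of -1.50 was as small as -0.61 over the alternatives. Pcna, the replication clamp, was at 243, 138 and 130.3. Mki67, however, was detected in 9.15%, 8.87% and 9.42% of macrophages at 2000 UMIs, shares within the counting error of each other. The cell-cycle median in UV over CON ran from -1.17 to -0.23 over the alternatives.

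The medians of the other lists are given beside -0.07 and -0.11 for all genes. Phagocytosis and scavenging genes had medians of 0.46 in UV over CON (3 of 18 at least 2-fold higher) and 0.08 in Rux over UV. Receptors of the JAK-STAT pathway had 0.35 and 0.06, chemokine receptors 0.49 and 0.31, costimulatory genes 0.41 and -0.18, antioxidant genes 0.34 and 0.11, and haem and iron genes 0.10 and -0.25. The lipid and lysosome state had 0.11 and 0.29, matrix proteases and inhibitors -0.04 and 0.02, glucocorticoid-response genes -0.28 and 0.06, lineage factors -0.03 and -0.23, pan-macrophage genes 0.23 and 0.33 and JAK-STAT feedback genes -0.08 and -0.32.

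Markers of other cells moved with the libraries and were counted in full. The 12 keratinocyte genes summed to 3784, 1473 and 1250.3 CPM in the macrophages, none at 0 in any library, with Lgals7 the largest, and keratinocytes themselves numbered 4445, 1831 and 1457. The 10 fibroblast genes summed to 2093, 1648 and 873, with Dcn the largest and Pdgfra at 0 by the rule. The 8 melanocyte and Schwann genes summed to 1459.9, 146 and 34.9, with Dct the largest, and 1 CON cell held 93.5% of them. The 8 muscle and adipocyte genes summed to 44.6, 10.9 and 440.4, and 1 Rux cell held 98.7%, with Acta1 the largest. Members with over 1% of UMIs from other lineages numbered 14, 9 and 7.

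The 10 neutrophil genes summed to 53.1, 41.8 and 104, with Csf3r the largest, Ly6g and Cxcr2 at 0 throughout and S100a8 at 12.0, 0 and 26.8. The 10 T and NK genes summed to 43.7, 13.6 and 15.6 and the 6 B-cell genes to 57.4, 109 and 40.8, mostly Ighm, with Ms4a1 at 0. The 9 mast-cell and basophil genes summed to 24.003, 34.5 and 197, with Mcpt4 the largest and 62.8% in 1 Rux cell. The 12 dendritic-cell genes summed to 484, 335 and 184, with Cd209a the largest at 168, 52.7 and 25.2 and Clec9a at 0. The 6 Langerhans genes summed to 233, 148 and 169, with Epcam the largest by mean level and Cd207 at 0 by the rule. Endothelial genes (9) summed to 79.7, 158 and 59.0, mural genes (8) to 38.6, 43.6 and 64.9 and erythrocyte genes (5) to 16.3, 50.9 and 53.6.

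Single cells held much of the UMIs behind the largest ratios (the plot of UMIs from 1 cell). Of the 96 genes at least 2-fold higher in UV than CON, 18 had over 50% of their UMIs from 1 cell of the higher library, and of the 90 lower, 16. In Rux over UV these were 11 of 58 and 26 of 139. Scd1 and Elovl6, enzymes of fatty-acid synthesis, were at 48.9, 430.0 and 3.22 and at 35.1, 335 and 4.29, but 454 of 473 and 357 of 368 UV UMIs came from 1 cell each. The muscle genes Tnnc2, Atp2a1 and Myl1, with no UMI in UV, led the other end in the same way. Genes with at least 10 cells and no such cell numbered 77 higher and 73 lower in UV over CON, and 47 higher and 113 lower in Rux over UV.

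**Figure D5:**
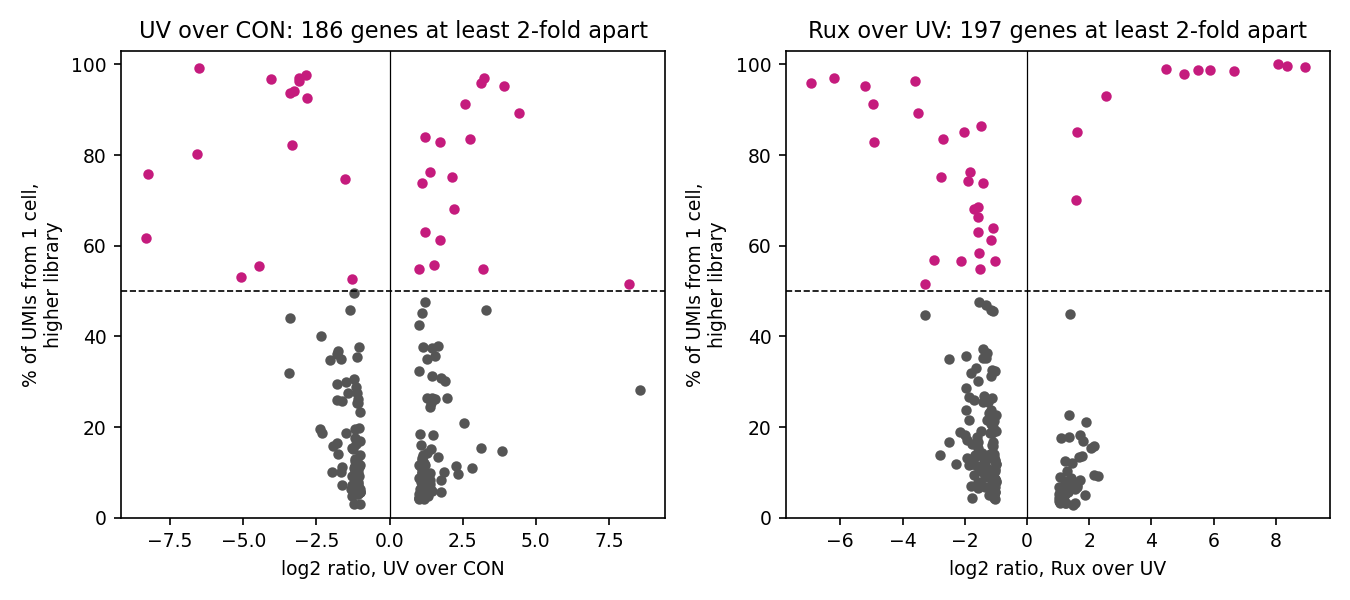
Each point is a gene at least 2-fold apart in UV over CON (left) or Rux over UV (right), with its log2 ratio against the percent of its UMIs that 1 cell gave in the higher library. Pink points lie above the dashed line at 50% (18 and 16 genes at left, 11 and 26 at right), and the Scd1 and Elovl6 points of both panels are among them.

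The same lists were set beside other cells of the skin, without a test since the rule chose the cells. The interferon-stimulated list had medians in Rux over UV of -0.68 in dendritic cells (16 of 21 below 0), -0.60 in keratinocytes (9 of 10), -0.34 in fibroblasts (20 of 20) and -0.13 in neutrophils (8 of 15), against -1.04 in macrophages (25 of 25). Over all genes the medians were -0.13, -0.018, -0.055, -0.49 and -0.11 in the same order, so in neutrophils the list lay above all genes. In sums, macrophages held 7853, 5996 and 3660.4 CPM and fibroblasts 2848, 3098 and 2374, so the highest library was CON in the first and UV in the second. The inflammatory list had medians in Rux over UV of 0.68 in dendritic cells and neutrophils, 0.39 in keratinocytes and 0.07 in fibroblasts, against 0.67 in macrophages. Il1b was at 1657, 1647 and 3131 CPM in dendritic cells and at 4362, 2922 and 5491 in neutrophils, of which UV had 22 cells. The class of Cd207 cells picked for comparison held 11, 6 and 6 cells, too few to be set beside the macrophages. It did not take in every cell with a UMI of Cd207, since the macrophage rule alone left out 7 such cells in Rux.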

How the data were processed

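Single-cell suspensions of full-thickness dorsal skin were run on a droplet 3′ platform. The authors deposited raw UMI counts per gene and cell for each library, made with Cell Ranger (6.1.2 in the labels, 7.0.0 in the headers of the count files) on mm10 and filtered to cells, and the labels also name Seurat 5.3.0. From these counts, macrophages were picked by the rule above and their UMIs summed per library over 32285 genes. Levels are CPM (counts scaled to a common total), log2 ratios add 0.5 UMI to each sum, intervals are exact (Poisson, Clopper-Pearson, or the conditional binomial for ratios) at 95%, and the floor is 3 UMIs per library. No difference was tested. The members, the 41 gene lists and the alternatives were chosen with earlier results of these data known. Named genes are those of the rule, the 3 of highest mean level in each list, those at least 2-fold apart, and the 10 highest and 10 lowest ratios, and any other was chosen after its values were seen (in the report Ccl7, Ccr2, Cd68, Cish, Clec9a, Cxcl9, Cxcl10, Cxcr2, Ddx3y, Xist, Fos, Gbp3, Gbp7, Ifngr1, Il6, Ly6c2, Ly6g, Lyve1, Mki67, Ms4a1, Ninj1, Nos2, Oasl2, Osmr, Pdgfa, Pdgfc, Spi1, Stab1, Stat2, Tnf, Trem2 and Tyrobp). Doublets were kept, and leaving out cells of the highest Scrublet scores was an alternative. Mx1, Clec7a, Ccl21a and some other genes of the lists are not reported here. Code was checked on simulated data. Python 3.11.15, numpy 2.4.6, scipy 1.17.1, pandas 2.3.3 and scanpy 1.11.5 were used.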

Additional observations from a re-analysis of the deposited data

How the results depend on the processing

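The alternatives changed the cell filter, the number of markers, the exclusion genes, doublets, members rich in other lineages, scaling, the weight of cells, totals, the minimum level, the pseudocount and, chosen after seeing the data, the removal of the top cell of each gene and thinning of the macrophages to 2000 UMIs. Rux held the highest share of macrophages under the 8 of these that bear on shares (filters, markers, exclusion, doublets, other lineages and thinning of kept cells): with 4 of 6 markers 1.08% (CON), 0.856% (UV) and 1.42% (Rux), with 2 of 6 markers 1.83%, 1.68% and 3.27%, thinned 1.05%, 0.821% and 1.35%, and without exclusion genes 2.26% in Rux. Genes at least 2-fold higher in UV than CON (96) were 45 with 2 of 6 markers, 193 at 20 CPM, 14 at 200 and 62 when thinned, and those lower (90) were 58 with 2 of 6 markers, 238, 15 and 58 without top cells. Genes higher in Rux than UV (58) were 92 with median-of-ratios scaling, 99 at 20 and 12 at 200, and those lower (139) were 373, 18, 81 without top cells and 71 when thinned. Of 33 list medians within 0.3 of 0 on the log2 scale, 22 changed sign under at least 1 alternative (chemokines in UV over CON ran from -0.44 to 0.12), and these directions are not read. Of the 38 larger medians 9 did, which follow with the gene ratios past 2-fold that turned. In UV over CON the dendritic median of 0.37 was -0.046 (strict filter), -1.11 (no top cells) and -0.87 (thinned), the Langerhans median of -0.87 was 0.13 (2 of 6 markers), 0.19 (no Scrublet doublets) and 0.25 (no members rich in other lineages), and without those members the keratinocyte median of -1.63 was 0.11, the endothelial one of 0.89 was -0.85 and Fabp4 was -0.14. Ly6c2, at 1.64, was -0.49 with 2 of 6 markers. In Rux over UV the dendritic median of -1.15 was 0.82 (no top cells), the Langerhans one of -0.35 was 0.89 (no exclusion), 0.25 (equal weight) and 0.56 (thinned), the fibroblast one of -0.78 was 0.071 (2 of 6 markers), 0.67 (no exclusion), 0.61 (no members rich in other lineages) and 0.052 (thinned), the keratinocyte one of -0.41 was 0.63 (strict), 0.52 (no exclusion), 0.23 (no doublets), 0.25 (equal weight) and 0.20 (thinned), and the growth factor one of -0.45 was 0.071 (thinned). Fabp4 (-2.76) was 0.11 (loose filter) and 0.33 (no doublets), Fabp5 (-1.15) was 0.094 (strict) and 0.052 (no top cells) and Serping1 (-1.12) was 0.85 (no members rich in other lineages). Of 1128 values of named ratios past 2-fold, 1121 kept their direction and 1006 stayed past 2-fold. The causes were not tested. No paired analysis was possible because each condition has 1 library.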

Other observations

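Genes outside the lists, of which all but Apoc2, among the 10 highest Rux over UV ratios, were chosen after their values were seen, gave further differences that were spread over many cells. In Rux, Acp5, the acid phosphatase TRAP, stood at 197 CPM against 52.7 in UV and 18.9 in CON, in 69, 14 and 14 cells, and Apoc2, an apolipoprotein, at 147 against 30.0004 and 1.71. Cd38, an NAD-consuming ectoenzyme, was at 54.9, 61.8 and 191 in CON, UV and Rux, Ptges, which makes prostaglandin E2 downstream of Ptgs2, at 33.4, 32.7 and 108, and Pdpn, podoplanin, at 62.6, 168 and 493. Rux was highest for all of these. Slpi, a protease inhibitor, was at 93.4, 452 and 629.7, with CON lowest. Lower in Rux were Trim30c, of an interferon-induced family, at 225, 92.7 and 16.1, and Kitl, the ligand of the mast-cell receptor Kit, at 191, 84.5 and 23.1.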
